A study of Homo sapiens with 2 samples.

Results

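The genes described here are the 5 subunits of the transcription factor NF-kB (NFKB1, NFKB2, REL, RELA and RELB), the inhibitors NFKBIA, NFKBIB, NFKBIE and TNFAIP3, and the nuclear coregulator BCL3. They are 10 of the 20046 genes with a probe on the array, and 9 of the 11720 genes that were detected on at least 1 array. They were chosen by function, after earlier results from the same pair of arrays had shown NFKBIA and many NF-kB target genes higher in the knockdown, so their differences are given as a description and no test is attached to them. The measurements come from SNU216, an established gastric cancer cell line, as 1 Illumina BeadChip array of a line made with a non-silencing hairpin RNA (the control) and 1 array of a line in which TEAD4 was knocked down. The labels give neither the number or sequence of the hairpins nor the time after their delivery. With 1 array per group, no difference has a replicate check, and a difference between the cultures or between the arrays cannot be told apart from the knockdown.

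NF-kB proteins work as dimers. In the canonical route, dimers such as RELA with p50, the processed product of NFKB1, are held in the cytoplasm by the IkB proteins that NFKBIA, NFKBIB and NFKBIE encode. The IKK kinase complex marks IkB for degradation and so frees the dimer. In the non-canonical route the kinase NIK, encoded by MAP3K14, causes the NFKB2 precursor p100 to be cut to p52, which then acts with RELB. Several of the genes are themselves targets of NF-kB, above all NFKBIA and TNFAIP3, and these close a negative feedback loop. In gastric and other epithelial cells the pathway is best known for inducing chemokines and cytokines during inflammation and infection.

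The promoter letters show which of the genes carry the recognition site of NF-kB next to their start. They are RefSeq windows on GRCh38.p14 that run from 250 bases before to 50 bases after an annotated start, and they were matched by symbol for 8 of the 10 genes, all except RELB and NFKBIE. The kB consensus motif was searched on both strands. The pattern was GGGRNNYYCC or its complement GGRRNNYCCC, with R for A or G, Y for C or T and N for any base. The motif was matched strictly, and looser kB-like stretches were neither counted nor marked. It was present in at least 1 window of 7 of the 8 genes, the exception being RELA, against 13.3% of the 27305 genes in the RefSeq table. By window, 8 of 13 held it (61.5%, against 11.3% of 35116 windows). Below, capitals mark the motif, matches that overlap are joined, and each sequence is written 5′ to 3′ on the strand of its gene. The 250 bases before the start are shown for the classical feedback inhibitors NFKBIA and TNFAIP3, and 30 bases around a match for the others.
NFKBIA, chr14:35404750-35404999, minus strand: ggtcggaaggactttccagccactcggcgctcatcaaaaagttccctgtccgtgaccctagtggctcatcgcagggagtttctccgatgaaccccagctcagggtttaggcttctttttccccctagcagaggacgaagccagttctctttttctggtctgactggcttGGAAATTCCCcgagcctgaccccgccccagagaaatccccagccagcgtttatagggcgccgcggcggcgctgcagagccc
TNFAIP3, chr6:137867009-137867258, plus strand: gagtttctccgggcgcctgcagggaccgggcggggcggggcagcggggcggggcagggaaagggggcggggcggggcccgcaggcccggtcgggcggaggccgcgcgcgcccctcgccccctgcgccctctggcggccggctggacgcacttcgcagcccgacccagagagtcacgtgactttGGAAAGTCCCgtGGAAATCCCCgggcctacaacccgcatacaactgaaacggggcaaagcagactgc
NFKB1, chr4:102501300-102501329, plus strand: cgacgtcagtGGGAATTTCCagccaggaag
NFKB2, chr10:102394462-102394491, plus strand: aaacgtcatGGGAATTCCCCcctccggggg
NFKB2, chr10:102395674-102395703, plus strand: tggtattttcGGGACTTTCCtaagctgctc
REL, chr2:60881518-60881547, plus strand: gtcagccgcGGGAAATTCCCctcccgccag
NFKBIB, chr19:38899932-38899961, plus strand: ggcgtggtgGGGAATTTCCCgcagggcgga
BCL3, chr19:44748700-44748729, plus strand: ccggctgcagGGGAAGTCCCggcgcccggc

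The match began 81 bases before the start in NFKBIA and 67 and 55 bases before it in TNFAIP3. It lay 49 bases before the start in NFKB1, 47 in REL and 28 in NFKBIB, and 3 bases after it in BCL3. NFKBIB has a further match, not shown, 39 bases after the start. In NFKB2, which has 3 annotated windows, the shown matches lay 107 and 21 bases before their starts. A match is a match of letters and says nothing of binding in these cells. The core motif recognised by TEAD factors, CATTCC or its complement GGAATG, occurred in 1 of the 13 windows, the downstream of the NFKB1 pair, against 14.0% of all windows:
NFKB1, chr4:102501877-102501906, plus strand, TEAD motif in capitals: ctcggacttcctCATTCCtgcgctaaccgc

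At a deposited detection p under 0.01, the control array detected 18948 of the 47323 probes (40.0%), and 18648 (39.4%) passed in the knockdown. TEAD4 itself checked the labels: the deposited signal of its brightest probe, ILMN_1705301, was 1135 (control) and 167.1 (knockdown), and the normalized signal was 5.89-fold lower. A dimmer TEAD4 probe (ILMN_2413041), detected only in the control, gave a bound of at least 1.17-fold lower. Neither array detected the last TEAD4 probe. Of the epithelial markers, 6 of 7 on the array were detected, KRT18 being the exception. The log2 of the summed signals of all 7, detected or not, went from 16.49 to 16.46, but single markers differed. CDH1 was 1.58-fold higher (0.66) and CLDN4 differed by 0.57, while EPCAM differed by -0.20 and ELF3 by -0.19. Of the 6 detected, 2 had differences above 0 and 4 below. None of the 4 endothelial markers was detected. Of 7 leukocyte markers 4 were detected, with PTPRC, CD3E and CD14 on neither array. The log2 of the summed signals of all 7 went from 10.30 to 11.10, but the markers did not move together. CD68 differed by 1.10, or by 0.66 with a second probe, LYZ by -0.15 and ITGAM by -0.63. MS4A1 was detected in the knockdown alone, at least 1.03-fold higher. Of 6 fibroblast markers 4 were detected, and the log2 of the summed signals of all 6 was 8.60 (control) and 8.01 (knockdown). COL1A2 and COL1A1, detected on both arrays, differed by 0.06 and -0.29. DCN, detected in the control alone, was at least 1.21-fold lower. LUM, also detected in the control alone, was at least 2.41-fold lower. In the second deposited table, of normalized values, its log2 difference was smaller (-1.03). The part of these markers in the NF-kB values was not tested. In bulk RNA, a change in all cells and a change in some of the cells cannot be told apart.

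**Figure D1:**
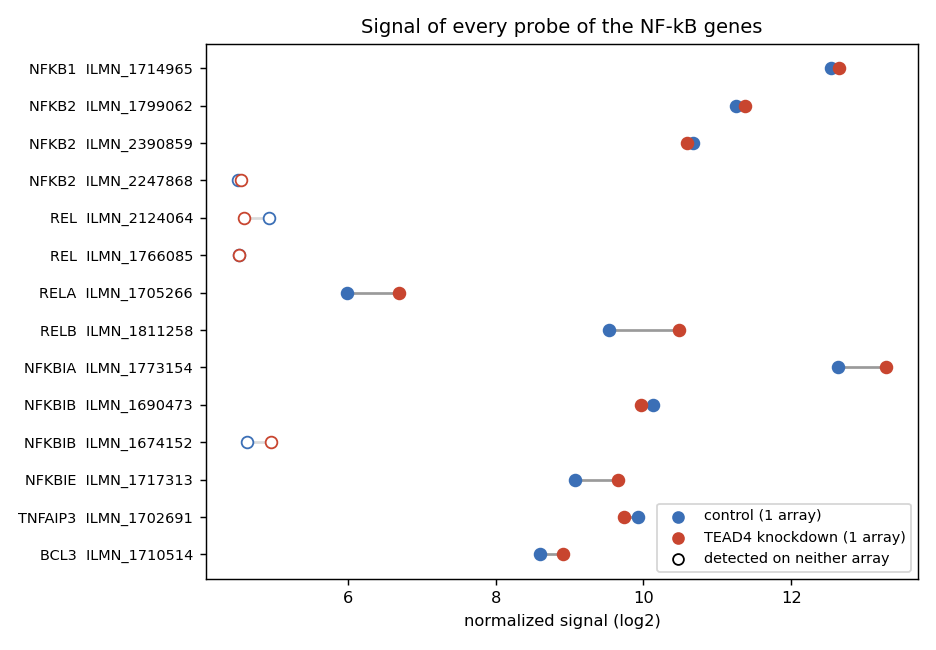
Normalized log2 signal (horizontal axis) of all 14 probes of the 10 genes on the control array (blue) and the knockdown array (red), 1 array each. Open circles mark the 4 probes detected on neither array. The red points lie well to the right of the blue ones for RELA, RELB, NFKBIA and NFKBIE.

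Among the NF-kB subunits, the transcripts of RELB and RELA were higher in the knockdown and those of NFKB1 and NFKB2 were nearly equal. Values below are normalized log2 signals, differences are knockdown minus control, and a gene is called higher or lower when it differed by at least 1.5-fold and was detected on the brighter array. Of the 9 detected genes, 3 were at least 1.5-fold higher (RELB, RELA and NFKBIA) and 0 were lower, and none reached 2-fold. Over all detected genes, 7.24% were at least 1.5-fold higher, 9.20% at least 1.5-fold lower and 4.15% at least 2-fold apart in either direction. Because the genes were picked with some of these values known, nothing is read from that comparison.

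RELB, the subunit that carries the transactivation domain of the non-canonical dimer, went from 9.53 in the control to 10.48 in the knockdown array. The deposited signals behind these were 748.3 and 1363. Its difference of 0.95 (1.94-fold higher) was the largest of the 10 genes, and only 258 of the 11720 detected genes had a higher one. The transcript of its partner NFKB2, which encodes the precursor p100, read 11.25 and 11.37 by the brightest probe, a difference of 0.12. A second detected NFKB2 probe went from 10.67 to 10.58 (-0.09), and the third was not detected on either array. The platform annotation assigns each of these probes to a different NFKB2 transcript. The non-canonical pair thus moved unequally at the level of transcripts: RELB differed by 0.83 more than NFKB2.

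The canonical subunits showed a similar split, with less certainty. RELA, which encodes the transactivating p65, went from 5.99 to 6.69 (0.70, 1.63-fold higher). Its probe was dim, with deposited signals of 48.78 and 86.06, and 15.2% of the detected genes were dimmer. In the deposited normalized table its difference was 0.37, and with a larger offset in the background step it was 0.49, so that RELA fell short of 1.5-fold in both. NFKB1, the precursor gene of p50, was among the brightest of the genes: its deposited signals were 6169 and 6205 and its normalized signals 12.55 and 12.65, a difference of 0.11. REL, which encodes the subunit c-Rel that is typical of lymphoid cells, was not detected by either of its 2 probes on either array, and no fold is given for it. Over the 4 detected subunits the median difference was 0.41, beside -0.04 over all detected genes. By route it was 0.40 for the 2 canonical and 0.53 for the 2 non-canonical subunits, so the medians of the routes lay closer together than the genes within each route.

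**Figure D2:**
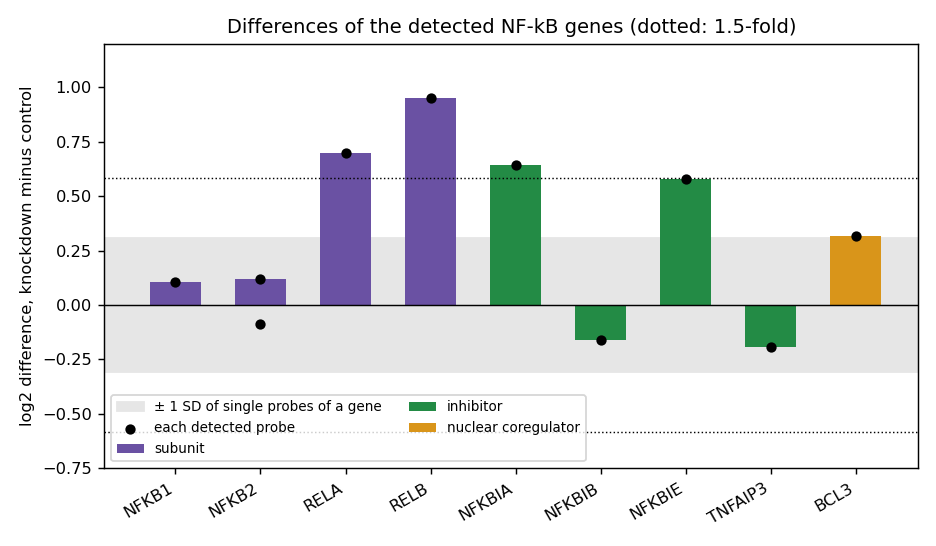
Log2 difference, knockdown minus control, of the 9 detected genes (bars, by the brightest probe) with every detected probe as a black point. Bar colours give the role, the grey band is ± 1 SD of single probes of a gene (0.31), and the dotted lines are 1.5-fold. RELA, RELB and NFKBIA pass the upper line, NFKBIE ends just under it, and no gene nears the lower line.

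Of the 4 inhibitors, NFKBIA was at least 1.5-fold higher, NFKBIE came just short of that size, and NFKBIB and TNFAIP3 differed by less than the SD between probes. NFKBIA encodes IkB alpha, the fast inhibitor that captures dimers and carries them out of the nucleus. Its normalized signals were 12.64 (control) and 13.28 (knockdown), from deposited signals of 6576 and 9638, and its difference of 0.65 was 1.56-fold. NFKBIA was one of the brightest genes on the arrays, with 91.9% of the detected genes dimmer. Among the 2930 brightest detected genes, which also include NFKB1 and NFKB2, 2.05% were at least 1.5-fold higher. NFKBIA was known to be higher when the genes were chosen, so nothing is read from that share.

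NFKBIE, which encodes IkB epsilon, a slower inhibitor, went from 9.07 to 9.65. Its difference of 0.58 lay just below the 1.5-fold threshold, and 92.7% of detected genes had a lower difference. NFKBIB, the gene of IkB beta, read 10.13 and 9.97 (-0.16), and its second probe was not detected. TNFAIP3 encodes A20, a ubiquitin-editing enzyme that shuts off signalling upstream of IKK. It read 9.93 and 9.73 (-0.19), from deposited signals of 993.8 and 804.3. The median over the 4 inhibitors was 0.21, which lies between the pair near 0.6 and the pair just below 0 and describes neither.

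BCL3 is an IkB relative that stays in the nucleus, where it binds p50 and p52 homodimers and can activate or repress their targets. It went from 8.59 to 8.91, a difference of 0.32 (1.25-fold). This placed BCL3 between NFKBIE and the genes that differed by less than the SD between probes.

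The only measure of error in these data is the disagreement between probes of the same gene. Over 2497 genes with 2 or more probes detected on both arrays, it amounted to an SD of 0.31 per probe, 0.28 among the brighter and 0.33 among the dimmer genes. In units of the pooled SD of 0.31, RELB differed by 3.10 SDs, RELA by 2.28, NFKBIA by 2.10 and NFKBIE by 1.89. BCL3 stood at 1.04, and NFKB1, NFKB2, NFKBIB and TNFAIP3 differed by less than 1 SD. The pooled SD is too small for the dim RELA and too large for the bright NFKBIA, so the order of these genes is not secure. Probes of 1 array share its RNA, labelling and hybridization, so this SD holds nothing of the variation between cultures. Only NFKB2 had a second detected probe, and its probes had differences of opposite sign that were both within 1 SD of 0.

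Direct contrasts within the group were of the same order as the error. NFKBIA exceeded NFKBIB by 0.81 and TNFAIP3 by 0.84, which are 1.86 and 1.93 times the SD of a difference between 2 probes (0.43). RELB exceeded NFKB2 by 1.92 times and NFKB1 by 1.95 times that SD. NFKBIA and RELB, an inhibitor and a subunit, were 0.31 apart, 0.71 times the SD, and NFKBIA and NFKBIE were 0.06 apart. As a class, the inhibitors had a median 0.20 below that of the subunits, and the spread inside each class was wider than this gap.

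**Figure D3:**
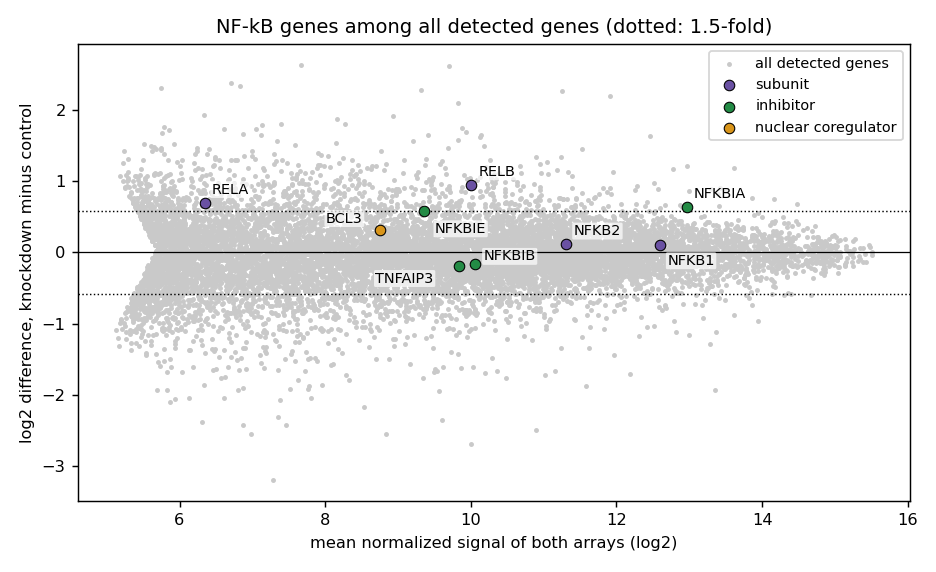
Mean normalized log2 signal of both arrays (horizontal axis) against the log2 difference, knockdown minus control (vertical axis), for all 11720 detected genes (grey) and the 9 detected NF-kB genes (coloured by role). Grey points spread less at high signal. NFKBIA (0.65) lies near the upper edge of the bright genes, and RELA (0.70) lies among the dim genes at the left.

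Of the 3 genes at least 1.5-fold higher, only NFKBIA and RELA have a promoter window. The kB motif therefore cannot be set against the difference of RELB, nor against that of NFKBIE, which has no window either. NFKBIA, with a single match to the strict pattern, was 1.56-fold higher. TNFAIP3, with 2 adjacent matches, and NFKBIB, with matches 28 bases before and 39 bases after its start, differed by -0.19 and -0.16. Neither passed. NFKB1 and NFKB2 hold matches too and were near equal on the arrays, while RELA, higher by its dim probe, has no match in its windows. Across all detected genes with a window, the motif was present in 18.1% of the genes at least 1.5-fold higher, 18.1% of those at least 1.5-fold lower and 16.7% of the rest. The part of the motif in the differences was not tested.

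Upstream of the subunits, the kinase that opens the non-canonical route was the highest of its list. MAP3K14, which encodes NIK, went from 8.95 to 10.01 (1.06, 2.08-fold higher). TAB3, an adaptor of the kinase TAK1, went from 7.90 to 6.82 (-1.08), and a second TAB3 probe differed by -0.59. IKBKG, the regulatory subunit NEMO of the IKK complex, differed by 0.44 and TAB1 by -0.24. The catalytic subunits CHUK and IKBKB, named here after their values had been seen, differed by 0.05 and -0.12. Of the 9 detected genes in this list of IKK and related kinases, 1 was at least 1.5-fold higher and 1 lower, with a median of 0.05. Beside this and the lists below stand the shares over all detected genes, 7.24% higher and 9.20% lower.

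Among receptor-proximal adaptors and ubiquitin ligases, 3 of 16 detected genes were at least 1.5-fold higher and 0 lower, with a median of 0.17. These were TRAF1 (1.15), an adaptor that NF-kB itself induces, IRAK2 (0.93), a kinase of the interleukin 1 and Toll-like receptor complexes, and CARD10 (0.75), a scaffold for BCL10 and MALT1. A second TRAF1 probe detected on both arrays differed by 0.08. MALT1 (-0.04) and FBXW11 (-0.12), a subunit of the ligase that recognises phosphorylated IkB, were the lowest by their brightest probes, and a second FBXW11 probe differed by 0.32. TRAF3, which holds NIK at a low level in resting cells, differed by 0.02. It is named after its value had been seen.

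Receptors and ligands were mixed. Of 9 detected receptors, 3 were at least 1.5-fold higher and 0 lower, with a median of 0.24. The highest was TNFRSF12A (1.11), the receptor of TWEAK and a known activator of the non-canonical route, followed by the death receptor TNFRSF10A (0.81) and the TNF receptor TNFRSF1B (0.66). CD40 (-0.45) was the lowest, and another CD40 probe also differed by -0.45. TNFRSF10B differed by -0.21, or by 0.34 with another probe. LTBR, the lymphotoxin receptor, differed by -0.20, and TNFSF12, the gene of TWEAK, was detected on neither array. Both are named after their values had been seen. Of 8 detected ligands, LTB, the membrane anchor of lymphotoxin, went from 11.82 to 12.70 (0.88), and its second probe differed by 1.15. IL18 was lower (-0.59). TNFSF11 was detected in the knockdown alone, at least 1.16-fold higher, and TNFSF10 in the control alone. The ligands had a median of 0.06.

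Among other negative regulators, none of 11 detected genes was at least 1.5-fold higher, and the median was 0.0004. The deubiquitinase CYLD was detected in the control alone and was at least 1.63-fold lower in the main setting. In the deposited normalized table it differed by -0.40, short of 1.5-fold. TANK (-0.40), a binding partner of TRAF proteins, was the next lowest, and TNIP2 (0.24) and OTULIN (0.13) were the highest. Among nuclear regulators outside the 10 genes, NFKBIZ, which encodes the atypical IkB zeta, went from 9.34 to 9.87 (0.53), the repressor NKRF differed by -0.22, and NFKBID, detected in the knockdown alone, was at least 1.17-fold higher.

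**Figure D4:**
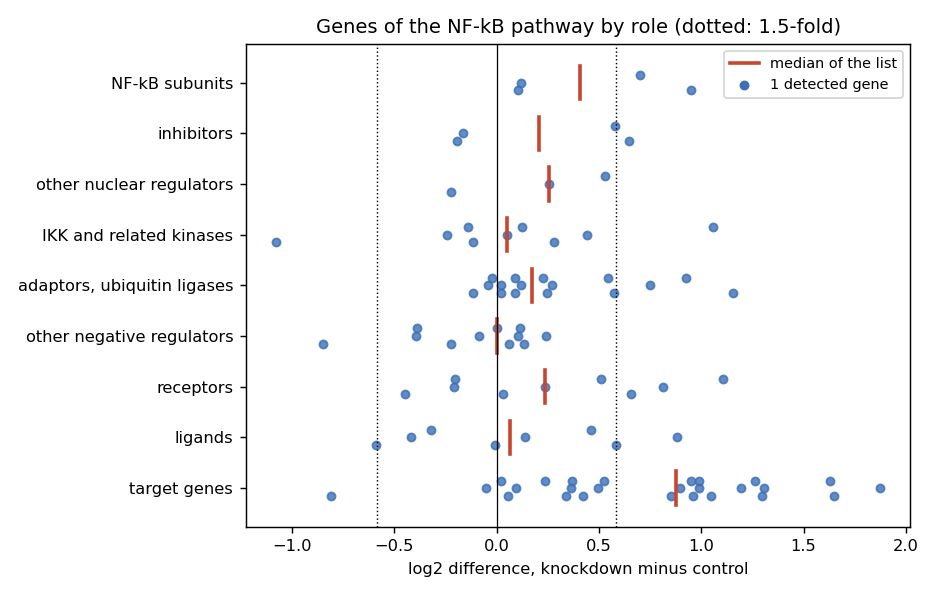
Log2 difference, knockdown minus control (horizontal axis), of each detected gene in 9 lists of the NF-kB pathway, with the median of each list in red and 1.5-fold as dotted lines. The target genes have a median of 0.87, while the medians of the upstream lists lie between 0.0004 and 0.24.

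Effector target genes had the highest median of the lists. Of 26 detected genes, 14 were at least 1.5-fold higher and 1 was lower, with a median of 0.87. Over all detected genes the shares were 7.24% higher and 9.20% lower. Among the 24 target genes detected on both arrays, 12 were at least 1.5-fold higher and 1 was lower, with a median of 0.69. Over all 10717 genes detected on both arrays, 643 were at least 1.5-fold higher and 773 lower. The remaining target genes, CXCL5 and SELE, were detected in the knockdown alone. In the main setting their bounds were at least 1.11-fold and at least 1.65-fold higher, so CXCL5 is not shown to reach 1.5-fold. SELE differed by 0.46 in the deposited normalized table, short of 1.5-fold. Many of the target genes were known to be higher when the list was drawn up. The gelatinase MMP9 (1.87), the chemokines CXCL1 (1.65) and CXCL8 (1.63) and the cytokine IL6 (1.30) were the highest, and a second CXCL8 probe differed by 1.79. GADD45B, a stress-induced gene, was lower (-0.81), and BCL2A1, a survival gene, differed by -0.05. Beside these, the largest difference in an NF-kB subunit or inhibitor was the 0.95 of RELB.

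**Figure D5:**
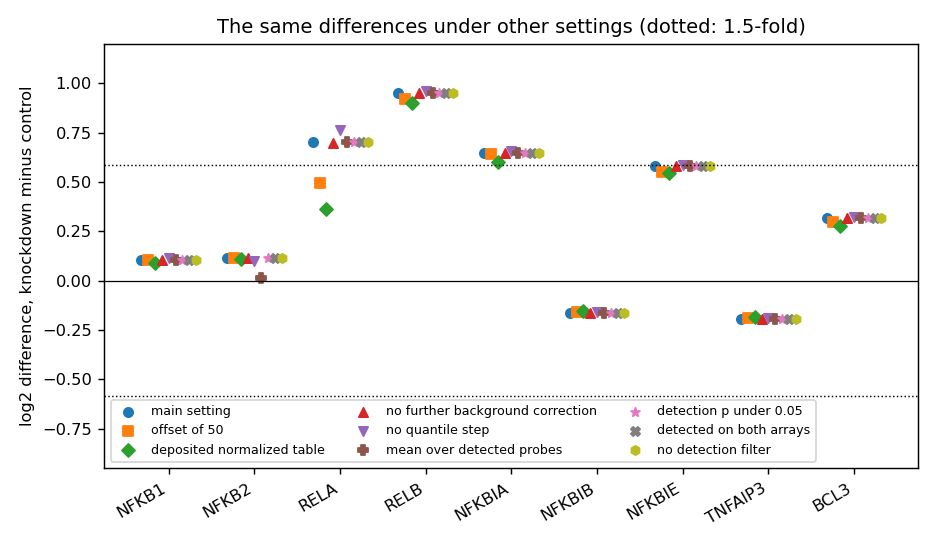
Log2 difference, knockdown minus control, of the 9 detected genes under the main setting and the 8 alternatives, each with its own symbol, and 1.5-fold as dotted lines. The symbols of a gene nearly coincide except for RELA, which ranges from 0.37 to 0.77, and NFKB2, which ranges from 0.02 to 0.12.

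Of the 8 alternative settings, 4 recompute the signals. The others change the detection filter or average probes, which cannot move a gene with a single detected probe. Over the 4 that recompute the signals, RELB ranged from 0.90 to 0.96 and NFKBIA from 0.60 to 0.66, and both passed 1.5-fold in each. NFKBIE ranged from 0.55 to 0.59 and passed only without the quantile step. NFKB1, NFKB2, NFKBIB, TNFAIP3 and BCL3 passed in none.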

How the data were processed

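Total RNA of the 2 SNU216 lines was labelled with biotin and hybridized, per the labels. The deposited non-normalized intensity values are on a linear scale, and 12861 and 12895 of them are below 0, so a background had been subtracted. Each signal has a deposited detection p-value. A second deposited intensity table holds quantile-normalized linear values, and what they were normalized to is unknown. The software is not given in the sources used here. The file headers pair each column with its sample.

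Signals were background-corrected with neqc of limma 3.58.1 in R 4.3.3 (normal-exponential model informed by the detection p-values, offset 16, quantile normalization, log2). The offset pulls differences of dim probes, such as that of RELA, towards 0. The form of the subtraction done before deposit is unknown.

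Platform annotation symbols, updated through Entrez identifiers to RefSeq (30074 of 30113 probes matched, 0 symbols changed), named the probes. The annotation leaves 17202 probes unnamed and gives several genes for 8, which were not used. The probe with the highest mean signal stands for its gene. Its fold is a lower bound where it was detected on 1 array only. The bound divides the brighter signal by the higher of its dim signal and the lowest detected-probe signal on the dimmer array. It holds for the main setting only. In the deposited normalized table the log2 differences of LUM (-1.03), CYLD (-0.40), SELE (0.46) and NFKBID (0.12) were smaller than their bounds.

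With 1 array per group no test was run. Members and lists were chosen with earlier results of these data known. All 10 members are described. Of each other pathway list the text names the 2 highest and 2 lowest detected genes, and up to 4 per direction past 1.5-fold. RIPK1, TRAF2, BIRC3, IRAK4, CD40LG and CSF2 were not analysed here. The normalization was tested on simulated data in which only bright probes detected on both arrays were changed. That test does not cover dim probes such as that of RELA. The plan also named protein sequences, which were not used here.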

Additional observations from a re-analysis of the deposited data

How the results depend on the processing

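The 8 alternatives were an offset of 50, the deposited normalized table, no further background correction, no quantile step, the mean over detected probes, a detection p under 0.05, detection on both arrays and no detection filter. A difference or median counted as moved when it shifted by more than the SD per probe (0.31), a tolerance chosen after the data were seen, and a count when it changed by more than 1.5 times. The number of the 10 genes at least 1.5-fold higher was 3 in the main setting and between 2 and 4 in the others: RELA was lost with an offset of 50 (0.49) and in the deposited table (0.37), and NFKBIE was gained without the quantile step (0.59). A larger offset pulls dim probes towards 0 by construction, and the cause in the deposited table was not tested. The median of the inhibitors ranged from 0.20 to 0.21 and that of the subunits from 0.12 to 0.44. The lowest subunit value came without a detection filter, which adds the undetected REL, and there the inhibitors lay 0.09 above the subunits instead of 0.20 below. TEAD4 differed by -2.22 in the deposited table and by -1.81 with the mean over detected probes, in place of -2.56. Over all genes, the numbers at least 1.5-fold higher and lower were 848 and 1078, against 550 and 710 with an offset of 50 and 447 and 530 in the deposited table. No paired analysis was possible because only 1 array was hybridized per group, and leaving out a replicate is impossible for the same reason. Dim signal limits RELA and REL most.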
